A study of Homo sapiens with 9 samples.

Results

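Pericentromeric bins were studied in Hi-C contact maps of growing and senescent human fibroblasts. The centromere gap of each of the 22 autosomes was taken as the longest run of 40 kb bins without a value in any of the 5 Hi-C libraries, and the bins with a value within 2 Mb of its edges were the members. The acrocentric chromosomes 13, 14, 15, 21 and 22 counted on the q side only. This gave 1711 members out of 66275 autosomal bins with a value in at least 1 library. They lay in 39 windows, both sides of the gap on 17 chromosomes and the q side on 5. Values in all 5 libraries were held by 1672 members, on which the measurements rest, and 39 had values in 1 to 4 libraries.

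The cells were IMR90, a line of diploid fibroblasts from human lung, at passages 20 to 25 in every library. All carried ER:HRAS(G12V), an oncogenic HRAS joined to an oestrogen receptor domain, which 4-hydroxytamoxifen (4OHT) switches on. The 3 growing libraries came from cells without 4OHT, and growing replicate 3 is also labelled with an MSCV vector. The 2 libraries of RAS-induced senescence (RIS) came from cells given 100 nM 4OHT for 6 days, and the study calls its replicates biological. Hi-C, which joins DNA ends that lie close together in the nucleus and sequences them in pairs, was done with in-nucleus ligation. Values of single libraries are listed in the order of their replicate numbers.

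Human centromeres are built from alpha satellite, a tandemly repeated DNA on which the kinetochore assembles, and they are flanked by other satellites and by segments duplicated between chromosomes. Pericentromeric heterochromatin is rich in H3K9me3 and HP1 and tends to cluster in the nucleus, in part around the nucleolus, to which the acrocentric chromosomes are tethered by their ribosomal gene arrays. Senescent fibroblasts with active RAS are known for rearranged heterochromatin and for distension of satellite DNA. Most of the satellite itself is absent from the hg19 assembly, so the bins describe the edges of the gaps.

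The members hold recurring sequence and satellite sequence, both shown here because reads from such stretches are hard to place. The first is sequence that recurs on another chromosome. Of all pairs of member bins on different chromosomes, 0.517% shared 100 or more words of 32 bases in GRCh37, the same build as hg19. Words found in more than 20 bins were left out of this count. The stretches below come from bin pairs that shared many words, of the chromosome pairs that were most enriched in growing cells, 1 with 21, 14 with 22 and 2 with 9. Each pair of copies is identical at 148 of 150 bases, and capitals mark the bases that differ. The stretches were picked as nearly identical with at least 2 differing bases, so this is not the identity of the whole bins.
1q copy, chr1:142854865-142855014, plus strand: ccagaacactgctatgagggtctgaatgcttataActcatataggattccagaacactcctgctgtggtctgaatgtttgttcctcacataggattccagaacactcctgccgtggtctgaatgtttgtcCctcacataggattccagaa
21q copy, chr21:10199812-10199961, minus strand: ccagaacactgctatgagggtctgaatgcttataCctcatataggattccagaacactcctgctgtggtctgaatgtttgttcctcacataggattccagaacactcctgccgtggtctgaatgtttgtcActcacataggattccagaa
14q copy, chr14:19522193-19522342, plus strand: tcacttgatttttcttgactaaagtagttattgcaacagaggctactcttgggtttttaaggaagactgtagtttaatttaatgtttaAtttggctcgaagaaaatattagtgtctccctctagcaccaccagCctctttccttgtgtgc
22q copy, chr22:16319006-16319155, minus strand: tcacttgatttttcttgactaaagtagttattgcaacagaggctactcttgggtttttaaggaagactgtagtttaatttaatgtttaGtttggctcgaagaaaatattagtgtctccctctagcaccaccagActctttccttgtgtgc
2q copy, chr2:95378353-95378502, plus strand: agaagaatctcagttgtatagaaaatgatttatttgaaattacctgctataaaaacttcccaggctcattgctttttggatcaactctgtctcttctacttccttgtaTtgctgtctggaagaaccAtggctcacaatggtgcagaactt
9q copy, chr9:66320490-66320639, plus strand: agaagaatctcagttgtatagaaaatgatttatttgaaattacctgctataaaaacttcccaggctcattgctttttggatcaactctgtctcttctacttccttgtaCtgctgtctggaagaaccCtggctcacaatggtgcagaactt
The 21q copy lies in an exon of an annotated miRNA gene, CR381653.1, and in a long non-coding gene, ENSG00000278932. The other 5 stretches overlapped no annotated gene. The bins around the 1q and 21q copies shared 20410 words and held 71, 185 and 96 recovered contacts in growing cells against 43 and 100 in RIS. The bins around the 14q and 22q copies shared 31951 words and held 18, 85 and 14 contacts in growing cells against 14 and 19 in RIS. The bins around the 2q and 9q copies shared 11959 words, yet held 2, 0 and 1 contacts in growing cells and 0 and 2 in RIS. Growing replicate 2 thus stood highest at the first 2 pairs, and the groups overlapped at all 3.

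The second kind is alpha satellite left inside the assembly. The CENP-B box, the site in alpha satellite that the centromere protein CENP-B binds, was searched on both strands as its core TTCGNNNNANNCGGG. It lay in 3.92% of the members and in 1.13% of the other autosomal bins. At least 5 boxes lay in 35 members and in 6 other bins. The member richest in boxes was chr2:92280001-92320000 on 2p, 40 kb from the nearest gap bin, with 81 boxes at a median spacing of 342 bases. A stretch of it is shown with a box in capitals, outside any annotated gene.
2p stretch, chr2:92283855-92284025, plus strand: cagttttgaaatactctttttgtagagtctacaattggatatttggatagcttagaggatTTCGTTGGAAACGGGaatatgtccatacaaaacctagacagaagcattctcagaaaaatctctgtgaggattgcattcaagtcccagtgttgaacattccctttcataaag
That bin held 10409, 31295 and 10724 recovered contacts in growing cells against 5596 and 7963 in RIS. This was 207% to 738% of the median bin of the same library, with growing replicate 2 far above the rest. A match of letters is a description of the sequence and not of bound protein.

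The libraries held 109967509 to 180775315 contacts, recovered as whole numbers from the balanced values, and RIS replicate 1 was the shallowest. Contacts between chromosomes (trans contacts) made up 7.04% to 7.56% of the contacts in growing libraries and 9.60% to 9.81% in RIS libraries, so the whole trans fraction was higher in RIS by a factor of 1.33 of the means. Growing replicates 1 and 2 and RIS replicate 1 held few read duplicates by the study's alignment summary and the other 2 libraries many. The share of dangling ends in the same summary separated the conditions, so it cannot be told apart from senescence. With 3 libraries against 2, no two-sided exact permutation test can give a p below 0.1.

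Member bins varied in how many contacts they rested on. The median member held 76.6%, 80.4% and 78.4% of the contacts of the median bin in growing cells against 75.7% and 79.0% in RIS, with overlap. The mean member over the median bin was 0.015, 0.09 and 0.03 on the log2 scale in growing cells against -0.12 and 0.01 in RIS. This difference of -0.10 was without overlap by a narrow margin (p = 0.1 in the exact permutation test), and ran from -0.17 without RIS replicate 2 to -0.03 without RIS replicate 1. Under 25% of the median bin in some library, or no value in some library, was found for 178 members (10.4%) and for 4.41% of the other bins. Of the 181 members within 200 kb of the gap, 16.6% were such few-contact bins. HindIII (AAGCTT) is the restriction enzyme whose fragments the study worked with. Over all 178 few-contact members the median number of its sites was 8, against 12 for all members and for the other bins. The windows with the fewest members were 9p with 7, 9q with 17, 2p with 18, 15q with 23 and 1q with 29 of 50 possible bins. The 10 members with the fewest contacts had a value in 1 library only, with 250 to 437 contacts there. The lowest was chr20:31160001-31200000 on 20q, with 250 contacts in RIS replicate 1, followed by chr16:34160001-34200000 on 16p with 289 and chr9:66280001-66320000 on 9q with 294, both in RIS replicate 2. In the other 7 the library was growing replicate 2. None of the 39 bins without values in some library entered the comparisons below.

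The main comparison asked how often pericentromeres of different chromosomes touched. Pericentromeres were strongly enriched for contacts with each other in every library, and this enrichment was lower in RIS. The measure was the sum of balanced contacts between members of different chromosomes over the sum expected from the mean of all bin pairs of the same 2 chromosomes. On the log2 scale it was 3.38, 3.40 and 3.36 in growing cells against 3.16 and 3.10 in RIS. Both RIS libraries lay below every growing library. The means were 3.38 ± 0.02 (SD, n = 3) and 3.13 ± 0.04 (SD, n = 2), a 10.4-fold and an 8.75-fold enrichment, and the difference of -0.25 had p = 0.1 in the exact permutation test. Among libraries with few duplicates the difference was -0.23, and among those with many it was -0.26. These values rested on 47833 to 100584 recovered contacts a library. The level depended on the expectation. With recovered contacts over those expected from the trans contacts of each bin, it was 2.12, 2.08 and 2.10 in growing cells. In RIS it was 1.91 and 1.86 by that measure, again without overlap.

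The lower enrichment was relative to the trans contacts of the same chromosomes, and trans contacts made up a larger share of all contacts in RIS. As a share of all balanced contacts of the members, contacts with pericentromeres of other chromosomes were 2.71%, 2.81% and 2.57% in growing cells against 2.80% and 2.59% in RIS. The groups overlapped, and the means of 2.70% ± 0.12 (SD, n = 3) and 2.69% ± 0.15 (SD, n = 2) had p = 1 in the exact permutation test. As a share of recovered trans contacts, they were 0.633%, 0.758% and 0.608% in growing cells against 0.444% and 0.477% in RIS, without overlap and with p = 0.1 in the exact permutation test. Relative to all contacts no difference was thus detectable, and relative to trans contacts there were fewer in RIS.

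**Figure D1:**
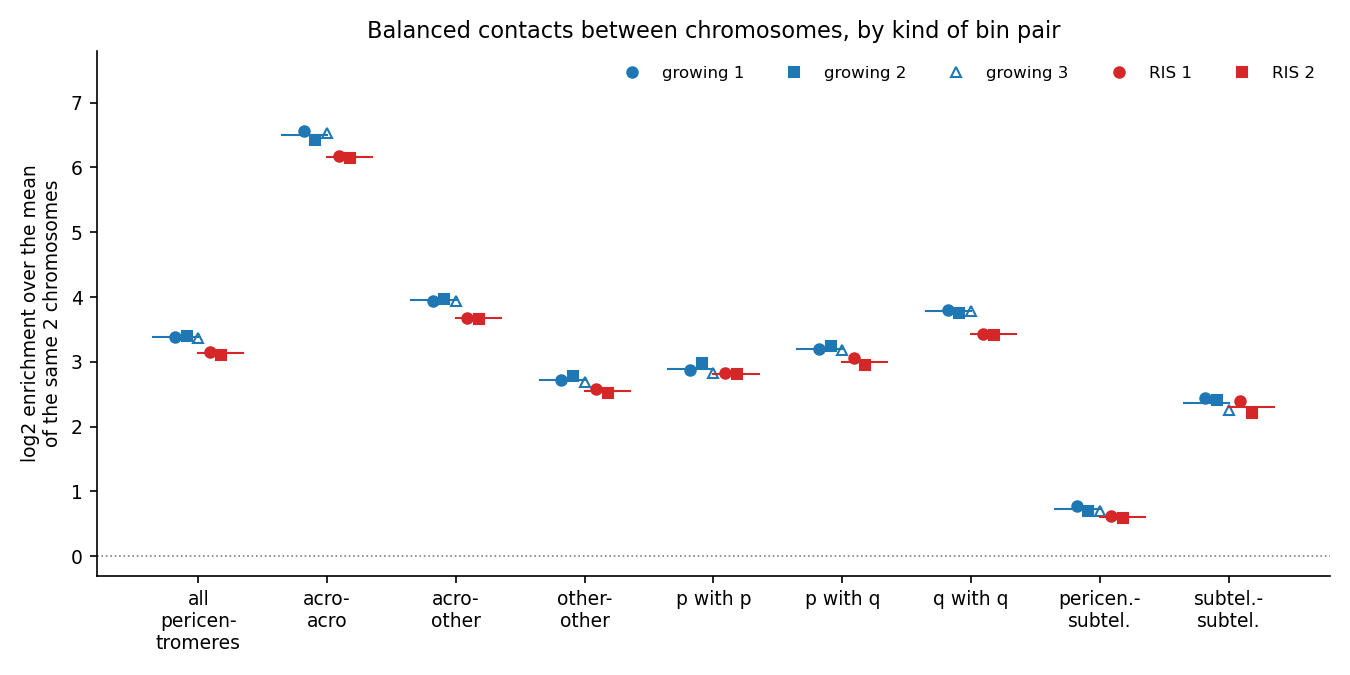
Log2 enrichment of balanced contacts between chromosomes (vertical axis) for 9 kinds of bin pair (horizontal axis), with a point per library and bars for the means of 3 growing (blue) and 2 RIS (red) libraries. Acro stands for acrocentric chromosomes and subtel. for subtelomeres. Acrocentric pairs sat highest, near 6.51 in growing cells, and both RIS libraries lay below every growing library in all classes except p with p and subtelomere with subtelomere.

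The enrichment depended on the kind of chromosome. Between acrocentric chromosomes it was 6.56, 6.43 and 6.53 in growing cells against 6.17 and 6.14 in RIS. Between acrocentric and other chromosomes the means were 3.95 and 3.67, and between other chromosomes 2.72 and 2.55. RIS lay below growing without overlap in these 3 classes, each with p = 0.1 in the exact permutation test. Between q-side windows the means were 3.78 in growing cells and 3.42 in RIS, and between p-side and q-side windows 3.20 and 3.00, both without overlap. Between p-side windows they were 2.89 and 2.82, and the libraries overlapped (p = 0.3 in the exact permutation test). Whether the sides differed in their change was not tested. The acrocentric windows all count as q side by the rule and enter the first 2 of these. The window named 21q lies before a second run without values, described below.

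Subtelomeres, the outermost 2 Mb of each arm with values, served as the comparison for chromosome ends. Between them the log2 enrichment was 2.44, 2.42 and 2.26 in growing cells against 2.39 and 2.22 in RIS, and the groups overlapped. The pericentromere value minus the subtelomere value of the same library was 0.95, 0.98 and 1.10 in growing cells and 0.77 and 0.88 in RIS, a difference of -0.18 without overlap (p = 0.1 in the exact permutation test). It overlapped when the 200 kb nearest to the gap or the acrocentric chromosomes were left out. Pericentromeres and subtelomeres were weakly enriched for contacts with each other, with means of 0.72 in growing cells and 0.60 in RIS.

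Contacts between pericentromeres were concentrated in few bin pairs. Bin pairs with 3 or more recovered contacts in some library numbered 7530 of 1325282 possible pairs, and held 41.5% to 50.01% of the contacts of a library. They were chosen by recovered contacts, of which the growing libraries held more between pericentromeres, so their share was not compared between the conditions. Bin pairs sharing 100 or more words held 14.6% to 16.4% of the contacts, and the groups overlapped. A contact was seen in 23.4% to 30.6% of these and in 2.27% to 3.95% of the other bin pairs. Their log2 enrichment was 8.33, 8.26 and 8.41 in growing cells and 7.99 and 7.996 in RIS. Leaving them out gave a difference of -0.23. Words found in more than 20 bins were not counted, so widely shared repeats were not removed by this. How far reads were placed on the wrong copy was not tested.

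The enrichment was lower farther from the gap in every library. In steps of 200 kb, the growing mean went from 4.54 in the first step to 1.90 in the last, and the RIS mean from 4.26 to 1.68. Both RIS libraries lay below every growing library in 10 of 10 steps. The steps share the partner windows and are not independent of each other.

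**Figure D2:**
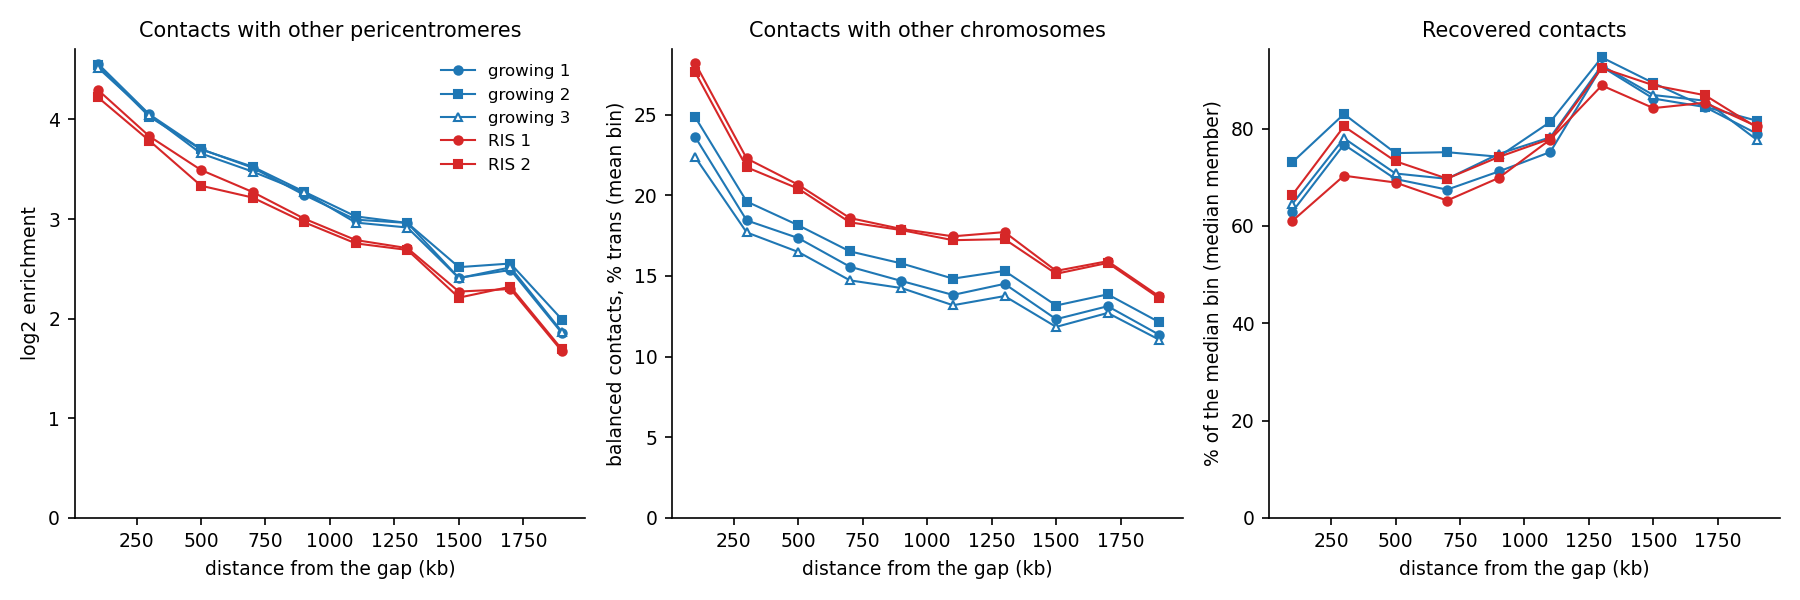
Measures of the member bins against distance from the gap in kb, in 10 steps of 200 kb, with a line per library (growing blue, RIS red). Left, log2 enrichment of contacts with other pericentromeres. Middle, percent of balanced contacts with other chromosomes (mean bin). Right, recovered contacts as percent of the median bin. The first 2 measures are lower far from the gap than next to it, RIS lies below growing on the left and above it in the middle, and the coverage curves overlap.

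By window, the level ran widely. In growing cells 1q, next to the large heterochromatic block of chromosome 1, was highest at a mean of 6.25. It was followed by 21q at 5.09. The lower enrichment in RIS was seen in most windows. The mean was lower in 33 of 39 windows and higher in 6. Both RIS libraries lay below every growing library in 26 windows (66.7%) and above in 1, whereas of all 1370 2 Mb windows of the autosomes 30.4% lay below and 38.2% above in their contacts with pericentromeres of other chromosomes. The median change was -0.20 over the 39 windows and 0.06 over the 1331 others.

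The largest differences were on 3p, 2p, 4p, 21q and 1q. For 3p, whose nearest protein-coding gene is EPHA3, the values were 2.47, 2.60 and 2.68 in growing cells against 2.01 and 1.96 in RIS, a difference of -0.60. For 2p the means were 4.94 and 4.41, for 4p 4.60 and 4.09, for 21q 5.09 and 4.59 and for 1q 6.25 and 5.75. In all 5 the groups did not overlap. For 22q the means were 4.80 and 4.74, and the libraries overlapped. The window higher in RIS without overlap was 19p, a window of the zinc finger genes ZNF254 and ZNF726, with 2.36, 2.46 and 2.32 in growing cells and 2.72 and 2.80 in RIS. Its difference of 0.38 had p = 0.1 in the exact permutation test. It rests on balanced values, and on chromosome 19 the direction depended on the measure. With recovered contacts over all trans contacts of the library, 19 of the 21 pairs of chromosome 19 (19p and 19q together) were lower in RIS.

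**Figure D3:**
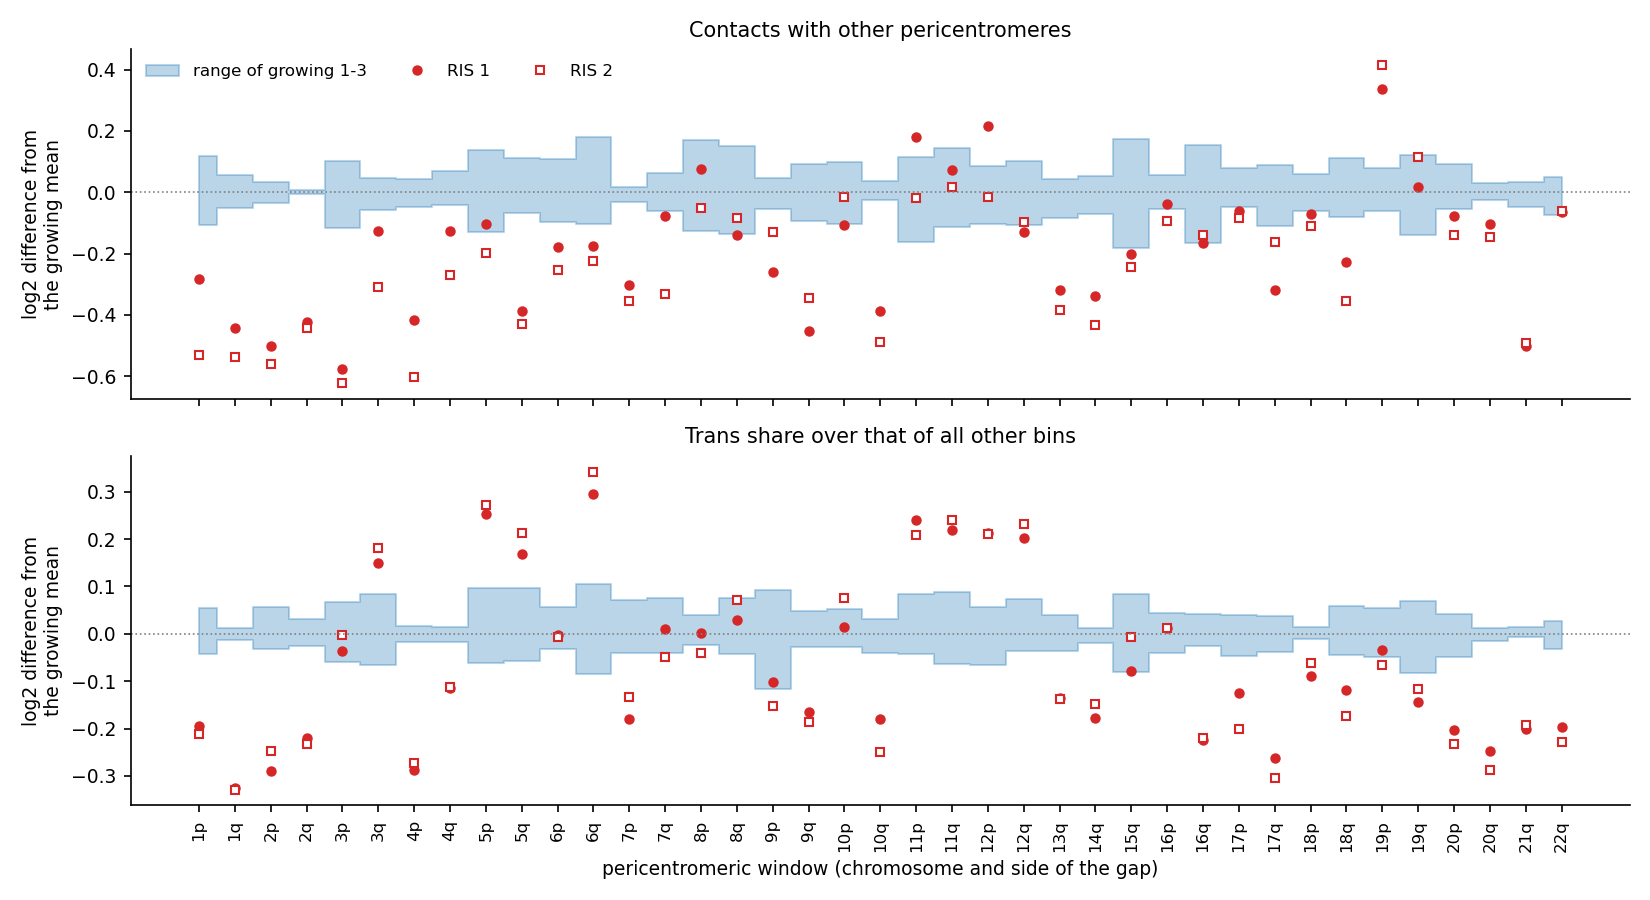
Difference of each RIS library from the growing mean (log2, vertical axis) for the 39 windows (horizontal axis, named by chromosome and side), for contacts with other pericentromeres (top) and for the trans share over that of all other bins (bottom). The blue band is the range of the 3 growing libraries around their mean. RIS points lie below the band in 26 windows and above it in 1 window, 19p, in the top panel, and below it in 21 and above it in 8 in the bottom panel. The top panel shows balanced values. With recovered contacts over all trans contacts, 2 of 21 pairs of chromosome 19 were higher in RIS.

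All 231 pairs of autosomes were enriched in every library. The 10 most enriched in growing cells were, in order, 1 with 21, 14 with 22, 2 with 9, 1 with 4, 15 with 22, 2 with 21, 9 with 21, 4 with 21, 14 with 21 and 9 with 14. An acrocentric chromosome was part of 8 of them. Chromosomes 1 and 21 reached 8.73, 8.66 and 8.78 in growing cells against 8.23 and 8.22 in RIS. Chromosomes 14 and 22 had 8.54, 8.41 and 8.55 against 8.55 and 8.48, and the groups overlapped. The first of these pairs was thus lower in RIS by 0.50 on the log2 scale, and the second differed by 0.01, less than the spread of the libraries.

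Of the 231 pairs, 165 had a lower mean in RIS and 66 a higher one. The largest differences downwards were those of chromosomes 3 and 17 (means 1.42 and 0.37), 14 and 21 (6.02 and 4.98) and 13 and 21 (5.61 and 4.65). For chromosomes 14 and 21, 491 to 1367 contacts were recovered a library, and for 3 and 17 only 45 to 160. Pairs of chromosome 21 were lower in RIS in 20 of 21 cases. Pairs of chromosome 19 were higher in RIS in 16 of 21, among them 13 with 19 (means 2.80 and 3.59), 18 with 19, 16 with 19 and 19 with 22. That direction depended on the measure. With recovered contacts over those expected from coverage, 13 of the 21 were higher. With recovered contacts over all trans contacts of the library, 2 of the 21 were, 13 with 19 differing by -0.0041 and 18 with 19 by -0.22 on the log2 scale, both with overlap. Pairs of chromosome 21 were lower in 17 and in 21 of 21 by these measures, and 158 and 223 of all 231 pairs were. These measures and the counts by chromosome were chosen after the values were seen.

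**Figure D4:**
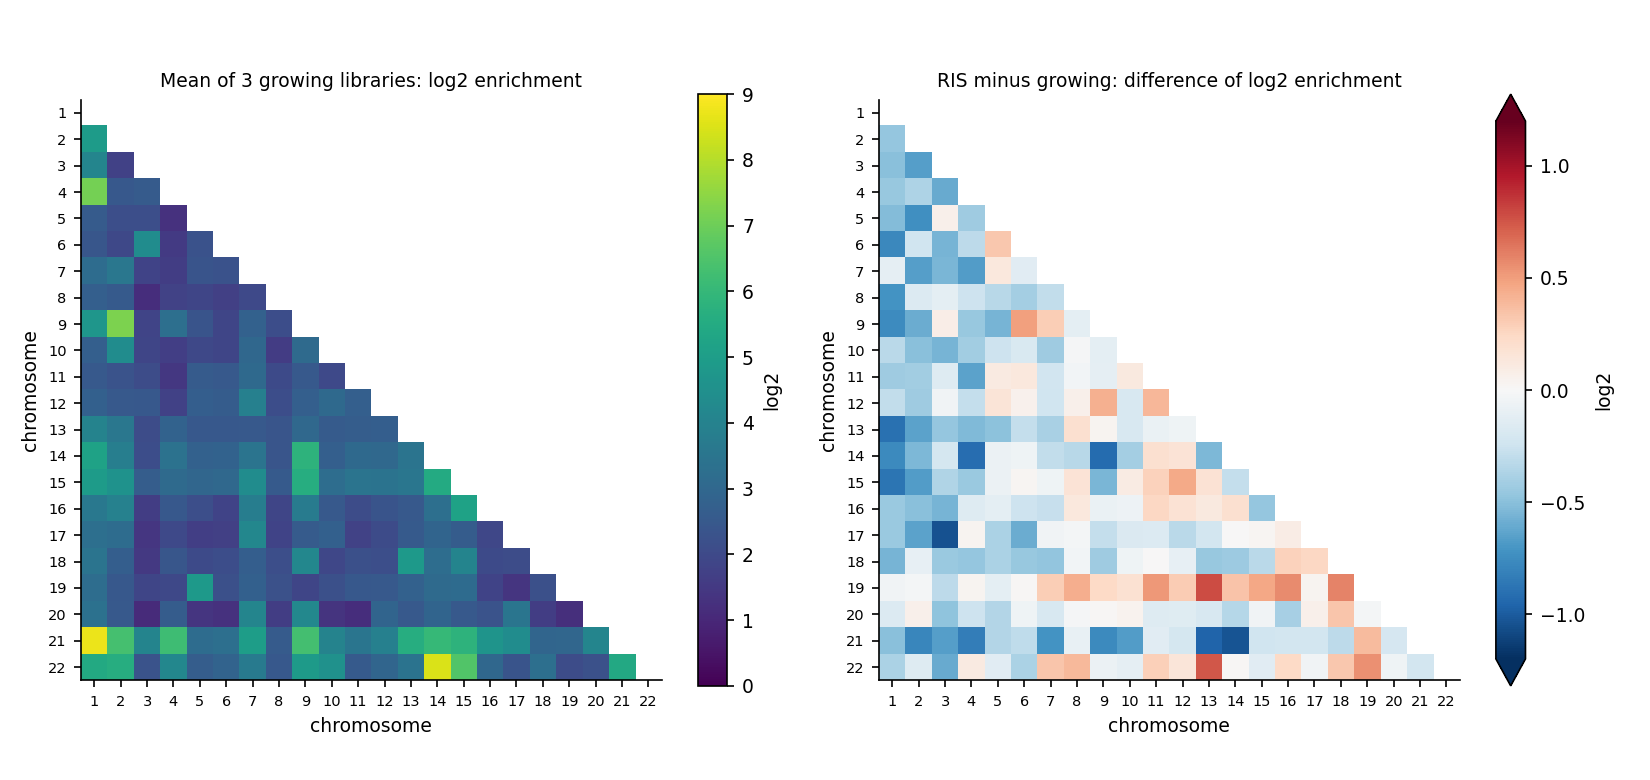
Log2 enrichment of contacts between pericentromeres for the 231 pairs of autosomes (both axes are chromosome numbers), as the mean of 3 growing libraries (left) and as the difference RIS minus growing (right, red higher and blue lower in RIS). The pairs of 1 with 21 and 14 with 22 stand out on the left, and on the right the row of chromosome 19 is mostly red (16 of 21 pairs, against 2 of 21 with recovered contacts over all trans contacts) and that of chromosome 21 mostly blue.

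Pairs of 2 Mb windows were then tested one by one with limma, on balanced values scaled to the trans total of each library and normalized on abundance, with p-values adjusted by Benjamini-Hochberg over all pairs of windows on different autosomes. Of 724 pairs of pericentromeric windows, 714 passed the minimum value. Of these, 59 (8.26%) were called at an adjusted p under 0.05, all lower in RIS, whereas 2.62% of all 754492 pairs tested were called, 1.46% higher and 1.16% lower. The median log2 fold change was -0.30 over the 714 pairs and -0.01 over all pairs. An unadjusted p under 0.05 was reached by 238 of the 714 (33.3%) and by 17.7% of all pairs. Pericentromeric pairs were enriched and so more abundant than most trans pairs, and calls rose with abundance. Of all pairs, 1.58% were called with no minimum value and 4.79% with a minimum of 10. The shares of members and of all pairs are thus not at equal abundance. Window 21q took part in 12 of the 59 and 1q in 11. The count dropped to 8 (1.12%, beside 0.790% of all pairs in that fit) when RIS replicate 1 was left out. It dropped to 33 (4.63%, beside 1.25% of all pairs), 2 of them higher in RIS, when RIS replicate 2 was. With limma-voom on recovered contacts 298 of 691 pairs were called, all lower, beside 5.66% of all pairs, 4.05% higher and 1.61% lower. Left-out libraries gave 96 to 340 calls by limma-voom. There were 96 (13.9%, beside 2.48% of all pairs in that fit) without RIS replicate 1, 104 (15.1%, beside 1.68%) without RIS replicate 2 and 340 (49.3%, beside 4.13%) without growing replicate 3.

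The called pairs with the largest fold changes rested on few contacts. The 1q and 18q windows (nearest genes PPIAL4G and ROCK1) held 15, 25 and 14 recovered contacts in growing cells against 2 and 11 in RIS, with a limma log2 fold change of -2.16 ± 0.50 (SE) and an adjusted p of 0.0283. Pair 1p with 15q held 13, 22 and 12 contacts against 2 and 7 (-1.75, limma adjusted p 0.0157). Pair 1p with 6q held 14, 21 and 21 against 7 and 9 (-1.42, limma adjusted p 0.0432). These 3 were not called by limma-voom. Pair 6q with 17q held 20, 37 and 30 contacts against 4 and 15 (-1.74, limma adjusted p 0.0293). Pairs 3p with 17p and 3p with 19p held 12 to 77 contacts (-1.62 and -1.55, limma adjusted p 0.0096 and 0.00689), and RIS lay below growing in both. Each of these 6 calls was lost without at least 1 library, that of 1q with 18q without growing replicate 1 or 2 or RIS replicate 1. The call of 1p with 15q was lost without growing replicate 2 or RIS replicate 2, and that of 6q with 17q without growing replicate 2 or 3 or RIS replicate 1. Those of 3p with 17p and 3p with 19p were lost without RIS replicate 1, and that of 1p with 6q when any 1 of the 5 libraries was left out. Calls were also lost in other ways. Without few-contact bins those of 1q with 18q (-1.42, limma adjusted p 0.156), 1p with 15q (-2.46, limma adjusted p 0.0592) and 1p with 6q (-0.87, limma adjusted p 0.265) were lost. Without the 200 kb nearest to the gap those of 1p with 15q (-1.12, limma adjusted p 0.413) and 1p with 6q (-0.93, limma adjusted p 0.317) were. Among libraries with few duplicates both missed the threshold again (limma adjusted p 0.154 and 0.105), and 1p with 6q did so with no minimum value (limma adjusted p 0.0590). The fold changes also leaned on single RIS libraries. That of 1q with 18q was -0.81 without RIS replicate 1 and -3.37 without RIS replicate 2, that of 6q with 17q was -0.87 without RIS replicate 1, and that of 1p with 15q was -1.11 without RIS replicate 2.

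Among pairs of larger counts, 14q with 21q held 878, 1367 and 1035 contacts in growing cells against 491 and 708 in RIS. Its log2 fold change was -0.97 ± 0.14 (SE), with a limma adjusted p of 0.00288. Pair 13q with 21q held 1029, 1513 and 1411 against 556 and 858 (-0.80, limma adjusted p 0.00681). Both were named after their values were seen. No pair was called higher in RIS. The pairs higher in RIS with the smallest p missed the threshold and were 16p with 19p (0.69, limma adjusted p 0.0511), 3q with 5p (0.91), 9p with 16p (1.43), 19p with 22q (0.56), 9p with 12q (1.41) and 11p with 19p (0.56). Of these, 3 were called under some alternatives. For 16p with 19p these were scaling to the total only, a pseudocount of 2, a minimum value of 10 and leaving out RIS replicate 2 (limma adjusted p 0.0335 to 0.0436). Pair 3q with 5p was called with the replicate block, with a minimum value of 10, without few-contact bins and without the 200 kb nearest to the gap (limma adjusted p 0.0307 to 0.0496). Pair 9p with 16p was called with the replicate block, among libraries with few duplicates and without those 200 kb (limma adjusted p 0.0208 to 0.0499). The 9p window holds 7 members, and its pair with 12q rested on 2 to 6 contacts a library. With limma-voom, the log2 fold change was 0.02 for 16p with 19p, 0.42 for 3q with 5p and 0.0030 for 9p with 16p, which rested on 6 to 10 contacts a library, and none of these 3 was called. It was negative for 19p with 22q (-0.17) and 11p with 19p (-0.33).

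The share of all contacts that the members made with other chromosomes was the next question. It was higher in members than elsewhere, and its ratio to that of other bins was smaller in RIS. The mean member had 15.5%, 16.4% and 14.8% of its balanced contacts in trans in growing cells against 18.8% and 18.5% in RIS. The mean of the other bins was 9.01%, 9.22% and 8.71% in growing cells and 11.5% and 11.3% in RIS. Both classes were thus higher in RIS without overlap. The means were higher by 3.07 percentage points in members and by 2.44 in other bins. The ratio below was thus smaller in RIS, but the mean gap in points was not. The log2 ratio of members to other bins was 0.78, 0.83 and 0.77 in growing cells against 0.71 and 0.71 in RIS, a difference of -0.09 without overlap (p = 0.1 in the exact permutation test). With recovered contacts in place of balanced values the difference was -0.07 and the libraries overlapped.

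The windows went in both directions. Relative to all other bins, the trans share was lower in both RIS libraries than in every growing library in 21 windows and higher in 8. For the mean share of all 2 Mb windows these shares were 45.5% and 38.1%. The 8 higher windows were 6q, 5p, 11q, 11p, 12q, 12p, 5q and 3q. On 6q, a window with the RNA-binding protein gene KHDRBS2, the log2 ratio was -0.12, 0.07 and -0.05 in growing cells against 0.26 and 0.31 in RIS. The largest difference downwards was that of 1q, at 2.48, 2.49 and 2.50 against 2.17 and 2.16, followed by 17q, 4p, 2p and 20q. In 1q at least 49.4% of the balanced contacts were in trans in each library.

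Single bins were tested as well. The value of a window is the mean over its bins, so their directions are no separate support for it. In limma on the log2 trans share, centred on the median bin, 768 of 1672 members (45.9%) were called at an adjusted p under 0.05, beside 44.3% of all bins. Of these 297 were higher and 471 lower in RIS, whereas 23.4% of all bins were higher and 20.9% lower. On 6q 41 of 49 members were higher and 0 lower, and on 5p 40 of 50 were higher and 0 lower. On 17q 39 of 50 were lower, on 20q 37 of 44 and on 1q 21 of 26, with 0 higher in each. The count of calls was thus near the background, and the windows differed in direction.

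The GC content of a window went with the change in its trans share. The Spearman rank correlation was -0.68 over the 39 windows and -0.85 over the 1331 other 2 Mb windows, as a description, since windows share libraries and partners. The relation did not hold for every window. Set over the mean of the other bins, the trans share of 6q and 3p, both at a median GC content of 35.5%, differed between RIS and growing cells by 0.32 without overlap and by -0.02 with overlap on the log2 scale. For the change in contacts with other pericentromeres the rank correlation with GC was 0.11 over the 39 windows and -0.42 over the others. The share of words recurring on other chromosomes went with the level of contacts between pericentromeres in growing cells, at a rank correlation of 0.61, and hardly with the change, at -0.04.

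The partners on other chromosomes differed too. For each group of windows the density of trans contacts with the 20% of windows richest in protein-coding genes was set over that with the poorest 20%, pericentromeres left out as partners. For pericentromeric windows this log2 ratio was -0.41, -0.47 and -0.37 in growing cells against -0.90 and -0.88 in RIS. The means of gene-poor windows elsewhere were -0.79 and -1.81, and those of gene-dense windows elsewhere 1.71 and 1.75, the latter with overlap. Pericentromeric windows were of mixed gene density, with 0 genes overlapping 7q and 53 overlapping 11q. Members held 5.64 protein-coding starts per Mb against 7.06 in the other bins. Pericentromeric minus gene-poor windows elsewhere was 0.34, 0.38 and 0.39 in growing cells and 0.97 and 0.88 in RIS, without overlap (p = 0.1 in the exact permutation test). The means of all other windows were 0.50 and -0.05. Pericentromeric minus all other windows was -0.96, -0.94 and -0.86 in growing cells and -0.92 and -0.76 in RIS, with overlap (p = 0.4 in the exact permutation test). Contacts with gene-dense partners were thus relatively fewer in RIS in pericentromeric windows. This difference could not be separated from that of other windows as a whole. It was smaller than that of gene-poor windows elsewhere, a comparison that is not at equal gene density.

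Contacts across the centromere gap were more frequent than the distance alone gives, and in sum they did not differ detectably between the conditions. They were set over the mean of bin pairs at the same distance within an arm. The log2 ratio was 1.40, 1.34 and 1.28 in growing cells against 1.27 and 1.43 in RIS. The groups overlapped, with a difference of 0.01 and p = 0.9 in the exact permutation test. The sum rested on 47933 to 106057 contacts a library. Shared words were counted between chromosomes only. How far these levels rest on sequence recurring on both sides of a gap was thus not tested. The sign of so small a difference turned without growing replicate 3 and in windows of 1 Mb. It was -0.07 without RIS replicate 2 and 0.09 without RIS replicate 1, both without overlap. Among libraries with few duplicates the difference was -0.10, and between those with many, 1 against 1, it was 0.15.

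Chromosomes differed widely in this respect. Contacts across the gap were above expectation in every library on 13 of 17 chromosomes. Chromosome 9 was highest at a growing mean of 5.63, from 60 bin pairs and 121 to 417 contacts a library. It was followed by chromosomes 11 (3.04), 1 (2.86), 6 (2.52) and 7 (2.25). Chromosomes 11 and 1 overlapped in their levels. Chromosomes 4 and 18 were lowest, at -0.67 each in growing cells, below expectation in every library. The gap of chromosome 1 spans 21000 kb and that of chromosome 9 18360 kb, and distances are those of the assembly, whose gap lengths are conventional.

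**Figure D5:**
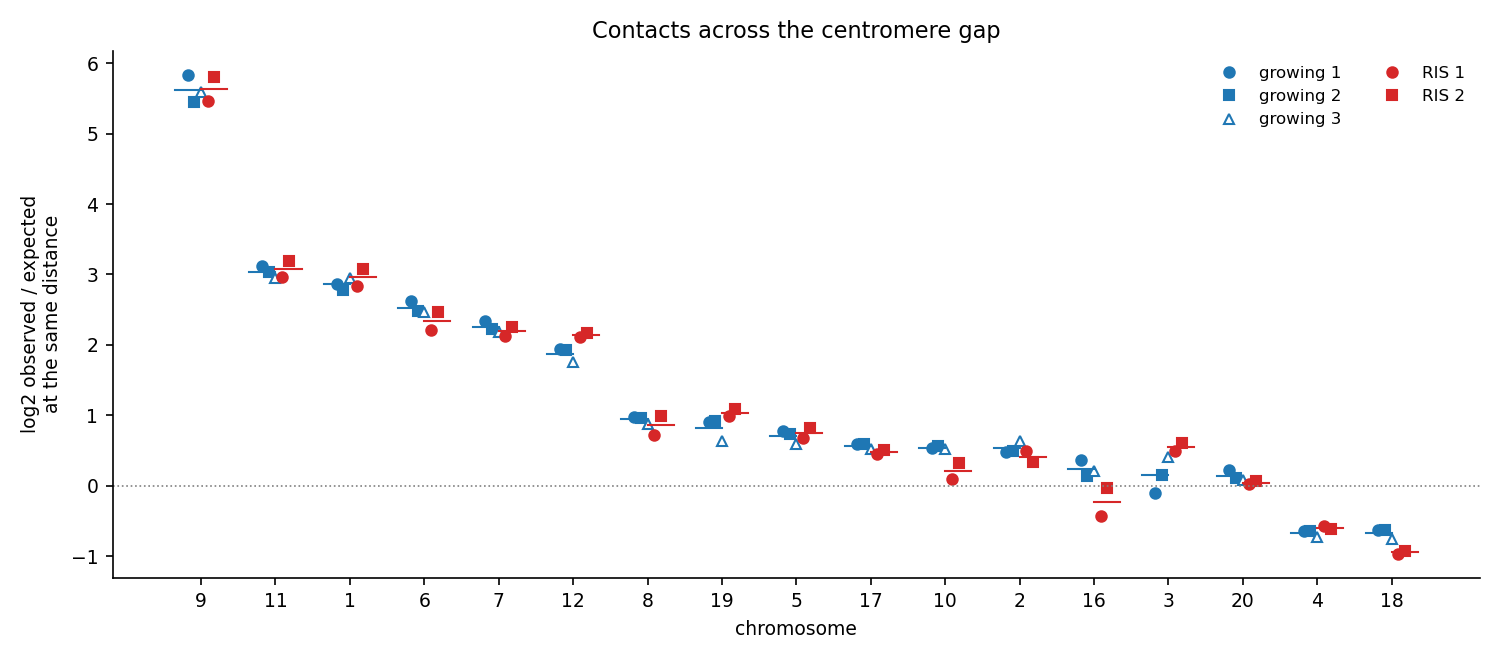
Log2 ratio of observed to expected contacts across the centromere gap (vertical axis) for the 17 chromosomes with both sides (horizontal axis, ordered by the growing mean), with a point per library and bars for the group means. Levels run from 5.63 on chromosome 9 to below 0 on chromosomes 4 and 18, and RIS lies clearly below growing on chromosomes 16, 10 and 18 and above it on 12.

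Single chromosomes differed in opposite directions. By limma over all pairs of 2 Mb windows within an autosome, 9 of 17 pairs across the gap were called at an adjusted p under 0.05, beside 55.6% of all 51236 pairs, so such calls were as common elsewhere. Of the 9, 2 were higher and 7 lower in RIS, against 27.1% higher and 28.5% lower among all pairs. Without RIS replicate 1 the count was 4 (23.5%, beside 43.8% of all pairs in that fit). Scaled to the total only, all 9 calls were lower.

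The largest differences downwards in the ratio to expectation were those of chromosomes 16, 10, 18 and 6. On chromosome 16 (SHCBP1 and VPS35 lie nearest on the q side) the log2 ratio was 0.36, 0.13 and 0.21 in growing cells against -0.44 and -0.03 in RIS, and its limma adjusted p was 0.00108. On chromosome 10, with the zinc finger genes ZNF37A and ZNF33B beside the gap, it was 0.53, 0.56 and 0.53 against 0.10 and 0.33, and its limma adjusted p was 0.000318. On chromosome 18 it was -0.63, -0.63 and -0.76 against -0.97 and -0.93, with a limma adjusted p of 0.00678 that rose to 0.0996 without RIS replicate 1. RIS lay below growing in these 3. On chromosome 6 the libraries overlapped in this ratio, at 2.62, 2.49 and 2.46 against 2.21 and 2.47, though limma called the pair with an adjusted p of 0.000202.

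The largest differences upwards were those of chromosomes 3, 12, 19 and 1. On chromosome 3, between EPHA3 and PROS1, the log2 ratio was -0.11, 0.15 and 0.41 in growing cells against 0.49 and 0.61 in RIS, and its limma adjusted p was 0.0378. The growing libraries were far apart here, and the call was lost when growing replicate 1 or 2 or either RIS library was left out (limma adjusted p 0.084 to 0.18). On chromosome 12, between ALG10 and ALG10B, it was 1.95, 1.92 and 1.76 against 2.11 and 2.16, with a limma adjusted p of 0.00139, whereas by limma-voom the log2 fold change was 0.0021 (limma-voom adjusted p 0.981). On chromosomes 19 and 1 the differences were 0.21 and 0.10, and the pairs were not called (limma adjusted p 0.0812 and 0.394).

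Contacts within a window and along the arm differed little in sum. Within a window, between bins at least 2 apart, the log2 ratio of observed to expected was -0.03, -0.04 and -0.0024 in growing cells against -0.07 and -0.07 in RIS. The difference of -0.04 had no overlap (p = 0.1 in the exact permutation test), and with recovered contacts it reversed to 0.09. That reversal was with overlap, at -0.29, -0.33 and -0.28 in growing cells against -0.10 and -0.33 in RIS. With bins of the same arm 2 to 20 Mb away, the ratio was 0.38, 0.35 and 0.38 against 0.31 and 0.33, a difference of -0.05 without overlap (p = 0.1 in the exact permutation test).

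Here too windows went opposite ways. Within-window contacts had a lower mean in RIS in 19 windows and a higher one in 20. The largest decreases were those of 21q (means -0.93 and -1.30), 5q, 6q, 3q and 5p. On 5q the log2 ratio was -0.01, -0.05 and 0.02 in growing cells against -0.37 and -0.31 in RIS. The change within a window had a rank correlation of -0.69 with the change in its trans share over the 39 windows, and both are parts of a fixed sum after balancing. Contacts with the rest of the arm differed most on 22q (0.12, 0.08 and 0.14 against -0.34 and -0.33) and 17q (means -0.20 and -0.64) downwards. Upwards they differed most on 1q (0.08, -0.03 and -0.08 against 0.33 and 0.22), 6q and 3p.

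The chromosome 21 window needs a separate statement. Its longest run without values goes up to position 9400000, so the window next to it, with the gene TPTE, lies before a second run from 11200001 to 14320000. That second run, of 3120 kb, is about as long as the centromere gaps of most other chromosomes. The name 21q follows the rule, and this window may lie on the short arm. Values of single windows and chromosome pairs were computed with it only. With the 2 Mb beyond that second run in its place, a choice made after the data were seen, the difference in enrichment between pericentromeres was -0.20, still without overlap (p = 0.1 in the exact permutation test).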

How the data were processed

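Hi-C libraries of IMR90 cells were aligned to hg19 and binned by the authors with HiC-Pro, and the deposited signal is the contact value of each pair of 40 kb bins after the authors' iterative correction (ICE), which sets each library to an equal total. Balancing removes differences in coverage, so a value does not show the depth behind it. Whole contacts were therefore recovered by dividing out 1 factor per bin, and all values came out whole (within 0.05 for small counts and 1% for larger ones). The 4 capture Hi-C libraries were not analysed here.

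Enrichment over distance or chromosome pair was compared between 3 growing and 2 RIS libraries by two-sided exact permutation tests. Window pairs and bins were tested with limma 3.58.1 in R 4.3.3 on log2(value + 0.5), with a minimum scaled value of 5, loess normalization for pairs and Benjamini-Hochberg adjustment over all pairs or bins. On 20000 simulated trans pairs, 200 of them changed 2-fold, limma found 33 and limma-voom 38 at counting spread alone, and 6 and 8 with added spread between libraries. On simulated cis pairs they found 189 and 188, and 157 and 149. Named window pairs were the called falls and rises of largest fold change or, where none was called, of smallest p, and for the gap the 4 largest differences each way. Alternatives were other filters, pseudocounts, scalings, window lengths and gap rules, recovered contacts, limma-voom, a replicate block and leaving out each library. The members, lists and alternatives were chosen with earlier results of these data known. Python 3.11.15, numpy 2.4.6, pandas 2.3.3 and scipy 1.17.1 were used.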

Additional observations from a re-analysis of the deposited data

How the results depend on the processing

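The lower enrichment between pericentromeres kept its direction and its separation of the libraries under the alternatives tried, the filter on bin pairs aside, except in the share of all balanced contacts of the members, where the log2 difference was -0.0018. Without bin pairs of 3 or more contacts it was -0.13, against -0.25 with them. Leaving out single libraries gave -0.28 to -0.22. Its excess over subtelomeres overlapped without the 200 kb nearest to the gap (-0.12), without acrocentric chromosomes (-0.086) and without bin pairs of 3 or more contacts (-0.055). That filter rests on recovered contacts, of which the growing libraries held more, so that nothing is read from it for this or the first result. With recovered contacts the difference within windows reversed to 0.087 with overlap, and that along the arm (-0.038) and in trans share (-0.069) overlapped too. The difference in member coverage overlapped without the 200 kb nearest to the gap (-0.085). Across the gap the difference reversed in libraries with few duplicates (-0.10) and in 1 Mb windows (-0.023), and ran from -0.070 to 0.092 when single libraries were left out, reversing to -0.020 without growing replicate 3 and to -0.070 without RIS replicate 2.

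The 59 window pairs called between pericentromeres became 18 with no minimum value (2.49%, beside 1.58% of all pairs), 21 without acrocentric chromosomes (3.93%, beside 2.16%), 298 with limma-voom (43.1%, beside 5.66%) and 8 to 59 without single libraries (1.12% to 8.25%, beside 0.790% to 1.45%). Without single libraries the 9 calls across the gap became 4 to 10 (23.5% to 58.8%, beside 43.8% to 54.3% of all pairs), and the 768 member bins became 467 to 734 (27.9% to 43.9%, beside 28.6% to 40.6% of all bins). The latter were 456 with few duplicates (27.3%, beside 27.6% of all bins) and 334 in 1 Mb windows (40.4%, beside 44.3%). Fold changes reversed with limma-voom for 19p with 22q (-0.17), 11p with 19p (-0.33) and 1p with 1q (-0.33), and for the last also when scaled to the total only (-0.015) and without few-contact bins (-0.46). The causes were not tested.

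Replicate numbers are shared by the groups, and deviations of same-numbered libraries correlated at 0.0043 in trans and 0.026 in cis. With only 2 RIS libraries this cannot show whether the numbers pair them, so pairing was left unknown. With the replicate block 89 window pairs were called in trans (12.5%, beside 3.51% of all pairs), 3 higher and 86 lower, 10 across the gap (58.8%, beside 56.7%) and 832 member bins (49.8%, beside 45.8%). The libraries with many duplicates, 1 against 1, could not be fitted with limma and have no call. Few members limit what can be said of 9p, 9q, 2p, 15q and 1q, and few-contact members were most numerous in 14q (16 of 46), 1q (13 of 29), 22q (12 of 40) and 7p (12 of 47).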
